A study of Nematostella vectensis with 8 samples.

Results

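Among the genes of Nematostella vectensis whose counts were lower after knockdown of NvfoxE-like, some carried gene identifiers that lay next to each other in the numbering of the gene models. This group held 50 of the 24520 genes in the tables. A gene was called falling when its level averaged at least 2 CPM (estimated counts relative to the library total, per 1000000) in control libraries and was at least 1.5-fold lower in the shRNA library in each of the 4 replicate pairs. This was read from the pair ratio, the log2 of the level in an shRNA library over that in the control library of the same replicate number, with 2 counts added to each count. Falling genes with another falling gene within 5 identifier numbers were taken as members, with NvfoxE-like itself (NV2.25991) and the cnidocyte gene mcol1 (NV2.12623) left out by name. Neither of these had a falling gene within 5 numbers, so the count of 50 was the same before they were left out. All 50 members had passed the minimum control level by construction, and all lower values given below for shRNA libraries follow from the way the members were chosen. They are therefore given as descriptions without a test.

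The libraries were made from polyadenylated RNA of whole gastrula embryos of wildtype genotype, raised at 24 °C and collected 28 hours after fertilization. In the NvfoxE-like shRNA group, embryos were injected with short hairpin RNA against NvfoxE-like, for which the study's methods name 2 hairpins in combination. In the scramble control group, embryos were injected with a scrambled RNA. Each group had 4 libraries, numbered as replicates 1 to 4, and each library was made from about 1000 injected embryos pooled together, so the values of single animals are averaged. Library names of replicates 3 and 4 began with LA20_3 in both groups and those of replicates 1 and 2 with LA19_2, although the labels gave all 8 libraries the same batch value, and what the prefix marks is not known. Because whole embryos were sequenced, fewer cells of a type and less RNA per cell cannot be told apart.

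NvfoxE-like encodes a forkhead transcription factor, a protein that binds DNA and switches target genes on or off. The study examined it as a regulator of cnidocytes, the stinging cells of cnidarians, which fire a thread out of a capsule built from minicollagens and other structural proteins and loaded with toxins. In the embryo of this sea anemone cnidocytes arise as single scattered cells among other cell types. In many genome annotations gene models are numbered along the chromosomes, and genes with adjoining numbers can then be neighbours or copies of each other. Whether the identifiers used here follow genome order is not given in the sources used here, and the word neighbour below means nearness in number only. Most members have no gene name in these sources and are given by their identifier.

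Library totals lay between 18656270 and 26073612 estimated counts, at which 3 counts, the limit that a count of 0 allows for counting error only, were worth 0.115 to 0.161 CPM. NvfoxE-like itself had 10.5, 6.22, 12.7 and 16.8 CPM in the shRNA libraries of replicates 1 to 4, against 29.1, 13.7, 48.8 and 49.5 CPM in the controls of the same numbers. Its shRNA value was the lower one in every pair, although the groups overlapped between replicate numbers. Among the cnidocyte marker genes, ncol3 averaged 559 CPM in shRNA and 510 CPM in control libraries, paxA 77.5 and 81.1 CPM, znf845 43.8 and 42.7 CPM and sox2 32.2 and 33.9 CPM. Some others of the study's collection of published cnidocyte genes were lower in shRNA libraries in every pair. The minicollagen gene ncol1 averaged 55.6 CPM in shRNA and 96.0 CPM in control libraries, mcol1 78.7 and 142 CPM, cnido-jun 3.94 and 14.3 CPM, GFI1B-like3 2.04 and 12.6 CPM and NEP3-like 16.8 and 72.1 CPM. By contrast, coup-like2 averaged 25.8 CPM in shRNA and 13.8 CPM in control libraries, and foxL2 averaged 14.6 and 8.90 CPM. Both of these were higher in the shRNA library of every pair. The markers were thus present in both groups but not at one common ratio, and their part in the members' lower values was not tested. The toxin genes NEP3 and NEP8 were near 0, with 0.0747 and 0.127 CPM in shRNA libraries against 0.394 and 0.123 CPM in control libraries.

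Of the 15445 genes at or above the control minimum, 161 were falling, which is 1.04% of them. Of these 161, 31.1% had another falling gene within 5 numbers (Wilson 95% interval 24.4% to 38.6%, which treats genes as independent and covers counting error only). Among the 15284 genes that were not falling, 5.29% had a falling gene within the same distance. At the closest spacing, with identifiers that differ by 1, 18.0% of the falling genes had a falling neighbour, against 1.00% of the other genes. Seen from a falling gene, 17.0% of the genes at a distance of exactly 1 number were themselves falling, 7.73% of those at 2 numbers, 8.21% at 3 numbers, 4.02% at 4 numbers and 5.66% at 5 numbers. The share was thus highest for directly adjoining identifiers. The rule used the same contrast, so these shares describe how the members lie and no test is attached to them. The share of 31.1% also depended on the pairing by replicate number. With groups required not to overlap and a mean difference at the limit instead, 92 genes were falling. Of these, 8.70% had another within 5 numbers, and no share among the other genes was set beside it. Under the same minimum, 22 genes were at least 1.5-fold higher in the shRNA library in all 4 pairs, and 0 of these had another such gene within 5 numbers. They were 0.142% of the genes at the minimum, too few for this 0 to be set against the share of the falling genes.

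**Figure D1:**
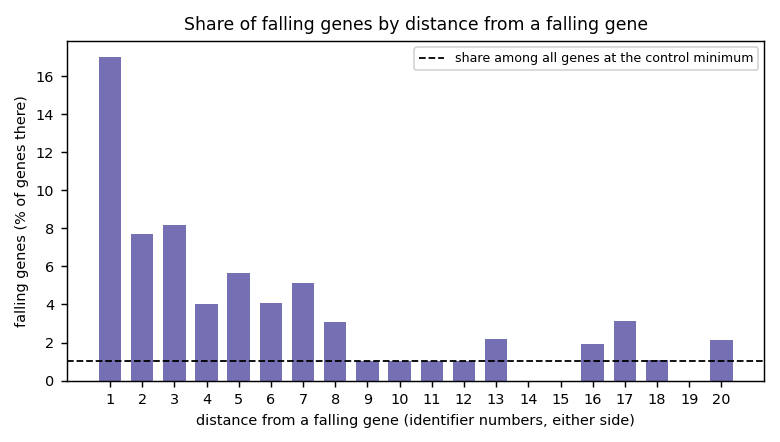
Share of genes that were falling (y axis, percent of the genes at or above the control minimum at that distance) against the distance in identifier numbers from a falling gene (x axis, either side). The bars stand at 17.0% at a distance of 1 number and at 7.73% at 2 numbers, and the dashed line marks the 1.04% found among all genes at the minimum.

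The members formed 19 groups in which each member lay within 5 numbers of the next. There were 12 groups of 2 members, 4 groups of 3, 2 groups of 4 and 1 group of 6. Between members that followed each other within a group, the distance was 1 number in 16 cases, 2 numbers in 5, 3 numbers in 6, 4 numbers in 3 and 5 numbers in 1 case. The mean pair ratio of the members ran between -4.45 and -0.78 with a median of -1.47, which corresponds to 36.1% of the control level. The median was -1.38 for the 109 other falling genes and 0.04 for all genes at the control minimum. A mean pair ratio of -2 or less was found in 12 members, one between -1 and -2 in 29 and one above -1 in 9. In 19 of the 50 members (38%) all 4 shRNA values lay below all 4 control values, a pattern seen in 0.738% of all genes at the minimum. In the other members the lower level in the shRNA libraries showed within each replicate number, while the groups overlapped across numbers.

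**Figure D2:**
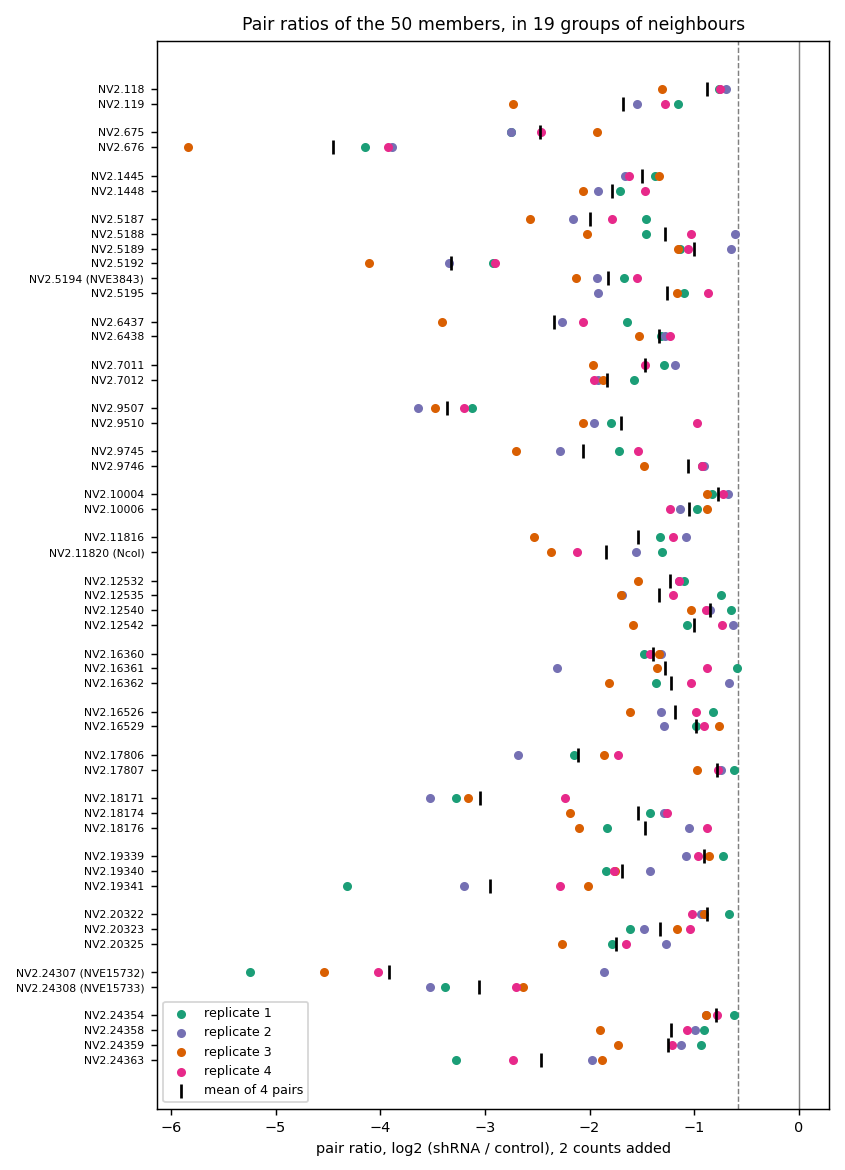
Pair ratio (x axis, log2 of shRNA over control with 2 counts added) of each member (y axis) in replicates 1 to 4, with a black bar for the mean of the 4 pairs, gaps between the 19 groups of neighbours and a dashed line at the limit of a 1.5-fold lower level. The mean values run between -4.45 for NV2.676 and -0.78, and the orange points of replicate 3 are the lowest in 31 members.

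The members were lower to different degrees in the 4 pairs. The median pair ratio was -1.37 in replicate 1, -1.37 in replicate 2, -1.87 in replicate 3 and -1.23 in replicate 4. NvfoxE-like had pair ratios of -1.46, -1.12, -1.93 and -1.56 in the same order. Replicate 3 held the lowest ratio for both, and for 31 of the 50 members (62%), against 40.4% of the other falling genes and 29.2% of all genes at the minimum. The median level of the members was 7.36, 7.45, 2.77 and 7.07 CPM in the shRNA libraries of replicates 1 to 4, against 20.1, 19.5, 10.6 and 17.2 CPM in the control libraries. The libraries of replicate 3 were thus low in both groups. Replicate 3 was the lowest shRNA library for 39 members, against 29.9% of all genes, and the lowest control library for 36 members, against 34.9% of all genes. The part of this library pair in the members' lower values was not tested.

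The largest group held 6 members between NV2.5187 and NV2.5195 and contained NVE3843 (NV2.5194), listed by its older gene number in the study's collection of published cnidocyte genes. The lowest member was NV2.5192, with 28.3, 41.6, 2.15 and 18.1 CPM in shRNA libraries of replicates 1 to 4, against 215, 424, 38.3 and 136 CPM in control libraries. Its control level varied more than 10-fold between replicates 2 and 3, and the highest shRNA value lay just above the lowest control value. Its mean pair ratio was -3.32 ± 0.56 (SD, n = 4 pairs). NVE3843 had 24.4, 22.3, 6.93 and 23.2 CPM in shRNA libraries, against 77.6, 85.1, 30.7 and 68.0 CPM in control libraries, and its mean pair ratio was -1.82 ± 0.26 (SD, n = 4 pairs). Its groups did not overlap, and replicate 3 was low in both.

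The other 4 members of this group were lower by less or stood at lower levels. NV2.5187 had 2.67, 3.38, 0.307 and 1.27 CPM in shRNA libraries, against 7.45, 15.4, 2.201 and 4.64 CPM in control libraries, with a mean pair ratio of -1.99. NV2.5188 had 21.3, 12.2, 11.9 and 33.0 CPM in shRNA libraries, against 58.7, 18.7, 48.6 and 67.6 CPM in control libraries, with a mean pair ratio of -1.28. In NV2.5188 the control library of replicate 2, and not that of replicate 3, was the low one, unlike in NV2.5192 and NVE3843. NV2.5189 averaged 5.31 CPM in shRNA and 10.7 CPM in control libraries, and NV2.5195 averaged 1.17 and 2.97 CPM, with mean pair ratios of -0.998 and -1.26. The groups overlapped in all 4 of these genes.

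**Figure D3:**
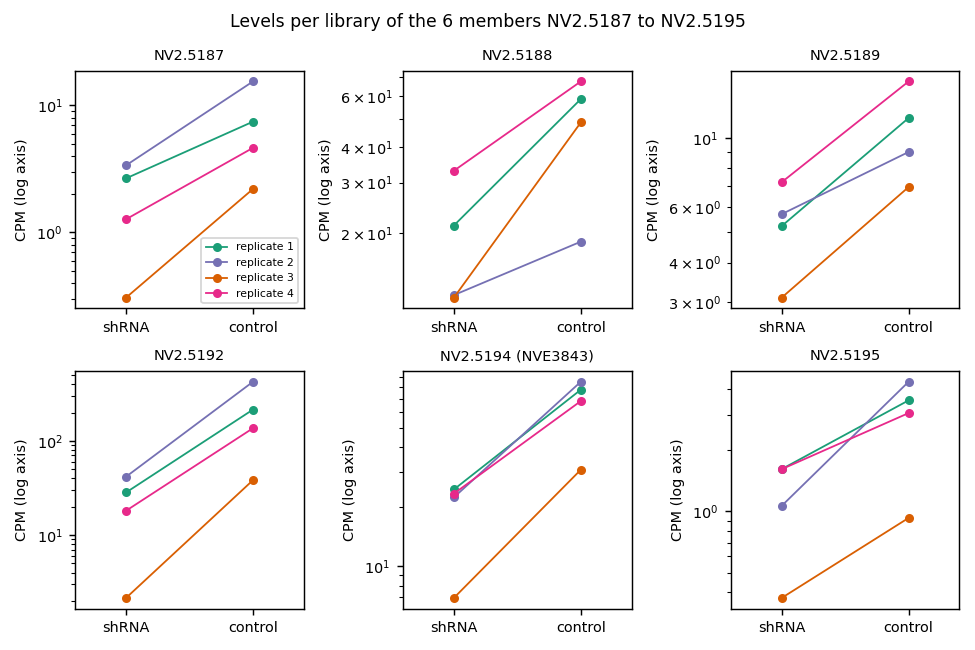
Level in CPM (y axis, log scale) of the 6 members NV2.5187 to NV2.5195 in shRNA libraries (left) and control libraries (right), with a line joining the libraries of the same replicate number. Every line is lower on the shRNA side, and NV2.5192 shows the widest gap, with 2.15 to 41.6 CPM in shRNA and 38.3 to 424 CPM in control libraries.

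Genes just beyond this group on the side of higher numbers were also lower in all 4 pairs without reaching the limit in each of them. NV2.5196 averaged 108 CPM in shRNA and 166 CPM in control libraries, and NV2.5199 averaged 199 and 328 CPM, with mean pair ratios of -0.78 and -0.71. Each reached the limit in 3 of the 4 pairs. On the side of lower numbers, NV2.5183 averaged 9.66 CPM in shRNA and 9.25 CPM in control libraries, with a mean pair ratio of 0.09. Ngal (NV2.5200), which encodes a structural protein of the stinging capsule and lies 5 numbers from NV2.5195, had 345, 447, 120 and 256 CPM in shRNA libraries, against 442, 579, 205 and 378 CPM in control libraries. Its shRNA value was the lower one in every pair, with a mean pair ratio of -0.52, but it reached the limit in 1 pair only and was no member. NVE3843 and Ngal are also close in the older numbering, in which Ngal is NVE3845.

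The lowest mean pair ratios, averaged over a group, stood in 2 groups of 2 members, one of them known from the collection. NVE15732 (NV2.24307) had 0.197, 0.429, 0.0767 and 0.508 CPM in shRNA libraries, against 10.4, 1.86, 3.49 and 9.84 CPM in control libraries. NVE15733 (NV2.24308) had 8.63, 12.3, 2.61 and 8.47 CPM in shRNA libraries, against 90.7, 143, 16.6 and 55.6 CPM in control libraries. The groups did not overlap in either gene, and the mean pair ratios were -3.92 ± 1.46 and -3.06 ± 0.46 (SD, n = 4 pairs each). The replicate 3 value of NVE15732 rested on 2 counts in the shRNA library and 84 in the control library, which puts the level at 2.199% of control with an exact counting interval of 0.262% to 8.20%. The pair carries consecutive numbers in both numberings. The next gene, NV2.24309, was lower in all 4 pairs as well (mean pair ratio -2.80), but its control level of 1.73 CPM was under the minimum.

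The other of these groups was formed by NV2.675 and NV2.676. NV2.676 had 1.34, 1.23, 0.0384 and 1.93 CPM in shRNA libraries, against 25.0, 19.8, 6.52 and 30.8 CPM in control libraries, the lowest mean pair ratio of all members at -4.45 ± 0.93 (SD, n = 4 pairs). Its replicate 3 value was 1 count in the shRNA library and 157 in the control library, or 0.588% of control with an exact counting interval of 0.0148% to 3.33%. NV2.675 had 7.30, 7.08, 2.81 and 6.93 CPM in shRNA libraries, against 49.7, 48.3, 10.9 and 38.7 CPM in control libraries, with a mean pair ratio of -2.48. The groups did not overlap in either gene. Of the reads of NV2.675, 68.8% were assigned to its longer transcript of 3954 bases in shRNA libraries and 96.7% in control libraries, while the summed count of its shorter transcript was 149 in shRNA and 134 in control libraries. As Salmon assigned the reads, the lower count of NV2.675 thus lay in the longer transcript. NV2.675 also held reads divided with NV2.674, and how reads split between its 2 transcripts is uncertain.

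Ncol (NV2.11820), a gene of the cnidocyte collection, formed a group with NV2.11816. Ncol had 1.85, 2.25, 0.422 and 1.47 CPM in shRNA libraries, against 4.69, 6.83, 2.49 and 6.77 CPM in control libraries. NV2.11816 had 74.2, 86.9, 18.2 and 64.2 CPM in shRNA libraries, against 186, 184, 106 and 147 CPM in control libraries. The groups did not overlap in either gene, and the mean pair ratios were -1.84 and -1.53. The genes around them did not share one direction. NV2.11815 averaged 273 CPM in shRNA and 624 CPM in control libraries and reached the limit in 3 pairs, whereas NV2.11819, numbered between the members, averaged 28.9 and 18.5 CPM with a mean pair ratio of 0.55. The minicollagen gene ncol4 (NV2.11801), a capsule component 15 numbers from the nearest member, averaged 136 CPM in shRNA and 216 CPM in control libraries (mean pair ratio -0.78) and missed the rule.

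Members of a group of 2 could differ widely in their ratio, as in NV2.675 and NV2.676 and in the groups that follow. NV2.9507 had 1.62, 1.13, 0.422 and 1.63 CPM in shRNA libraries, against 14.7, 15.3, 5.48 and 15.8 CPM in control libraries (mean pair ratio -3.36 ± 0.24, SD, n = 4 pairs). NV2.9510 had 2.32, 1.04, 2.59 and 5.12 CPM in shRNA libraries, against 8.24, 4.38, 11.1 and 10.2 CPM in control libraries (mean pair ratio -1.70). The groups were apart in NV2.9507 and overlapped in NV2.9510, and replicate 3 was low in control libraries for NV2.9507 but high for NV2.9510. NV2.6437 averaged 0.479 CPM in shRNA and 2.40 CPM in control libraries (mean pair ratio -2.34), and NV2.6438 averaged 6.33 and 15.8 CPM (mean pair ratio -1.34). NV2.9745 averaged 0.533 CPM in shRNA and 2.28 CPM in control libraries (mean pair ratio -2.06). Its neighbour NV2.9746 had 308, 277, 150 and 332 CPM in shRNA libraries, against 586, 520, 418 and 632 CPM in control libraries (mean pair ratio -1.06). The groups of NV2.9746 did not overlap, and it had the highest control CPM of the members.

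Levels can be compared between genes only per length, for which TPM (Salmon's abundance corrected for transcript length and scaled to the same total in each library) was summed over the transcripts of a gene. The highest mean control TPM of all members stood in NV2.1445, with 185 TPM in shRNA and 496 TPM in control libraries. Its neighbour NV2.1448 had 113 and 360 TPM. In counts, NV2.1445 had 93.0, 141, 41.2 and 57.7 CPM in shRNA libraries, against 241, 447, 104 and 178 CPM in control libraries, and NV2.1448 had 17.0, 26.7, 6.29 and 13.5 CPM against 55.7, 101, 26.5 and 37.6 CPM. Both genes were highest in replicate 2 and lowest in replicate 3 in both groups, and the TPM ratio of NV2.1445 to NV2.1448 lay between 1.38 and 2.16 in shRNA libraries and between 1.31 and 1.49 in control libraries. This was the narrowest range of all neighbouring members, at 1.65-fold between the extreme libraries. The mean pair ratios were -1.50 and -1.79.

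Neighbours did not in general keep a fixed ratio to each other. The TPM ratio of NV2.24307 to NV2.24308 lay between 0.0171 and 0.0448 in shRNA libraries and between 0.00972 and 0.158 in control libraries. That of NV2.675 to NV2.676 lay between 1.68 and 33.2 in shRNA libraries and between 0.545 and 1.06 in control libraries. The widest range was 67.7-fold, for NV2.5189 over NV2.5192, whose ratio lay between 0.335 and 3.51 in shRNA libraries and between 0.0520 and 0.442 in control libraries. The members of these pairs were thus both lower after knockdown but to different degrees, and varied differently between libraries of the same group.

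Groups of 3 members differed in how alike their members were, and those of NV2.18171, NV2.18174 and NV2.18176 were lower to different degrees. NV2.18171 had 0.355, 0.322, 0.192 and 1.17 CPM in shRNA libraries, against 4.10, 4.86, 2.33 and 5.89 CPM in control libraries (mean pair ratio -3.05). NV2.18174 averaged 3.50 CPM in shRNA and 10.4 CPM in control libraries, and NV2.18176 averaged 2.17 and 6.23 CPM, with mean pair ratios of -1.54 and -1.47. The groups were apart in NV2.18171 only, and NV2.18176 had its lowest values in replicate 2, with 0.107 CPM in the shRNA and 0.355 CPM in the control library. Between these members, NV2.18173 averaged 119 CPM in shRNA and 108 CPM in control libraries, with a mean pair ratio of 0.17.

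The group of NV2.19339, NV2.19340 and NV2.19341 had directly adjoining numbers. NV2.19340 had 1.65, 0.520, 5.995 and 7.28 CPM in shRNA libraries, against 6.08, 1.59, 20.4 and 25.0 CPM in control libraries, with a mean pair ratio of -1.69 ± 0.19 (SD, n = 4 pairs). Its level was higher in replicates 3 and 4 than in replicates 1 and 2 in both groups, while the pair ratio was similar in all 4 pairs. NV2.19341 had 0.205, 0.713, 0.947 and 1.51 CPM in shRNA libraries, against 5.57, 7.46, 4.06 and 7.77 CPM in control libraries (mean pair ratio -2.96), and NV2.19339 averaged 10.8 CPM in shRNA and 20.4 CPM in control libraries (mean pair ratio -0.91). The groups were apart in NV2.19341 and overlapped in NV2.19339 and NV2.19340. NV2.19340 and NV2.19341 shared reads that Salmon divided between them, so how the count splits between these genes is uncertain, and the pair ratios of their summed count were -2.60, -2.77, -1.81 and -1.88.

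Of the members NV2.16360, NV2.16361 and NV2.16362, the first had 17.5, 16.1, 11.8 and 16.02 CPM in shRNA libraries, against 49.0, 40.3, 30.0 and 43.2 CPM in control libraries. Its pair ratios were the most even of all members, with a mean of -1.39 ± 0.08 (SD, n = 4 pairs), and its groups did not overlap. NV2.16361 averaged 1.54 CPM in shRNA and 3.46 CPM in control libraries (mean pair ratio -1.28 ± 0.76, SD, n = 4 pairs), and NV2.16362 averaged 4.92 and 11.6 CPM (mean pair ratio -1.22). The mean pair ratios of these 3 genes differed by 0.17 at most, less than the SD between pairs of NV2.16361. NV2.16361 and NV2.16362 also shared divided reads, and their summed count had a mean pair ratio of -1.25. In the group NV2.20322, NV2.20323 and NV2.20325, the last had 32.1, 29.3, 13.1 and 38.9 CPM in shRNA libraries, against 111, 70.8, 63.3 and 123 CPM in control libraries (mean pair ratio -1.74). Its groups were apart, whereas they overlapped in NV2.20322 (3.34 and 6.33 CPM on average, mean pair ratio -0.88) and NV2.20323 (3.94 and 10.4 CPM, mean pair ratio -1.32).

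The 2 groups of 4 members spanned 10 and 9 numbers. In NV2.12532, NV2.12535, NV2.12540 and NV2.12542 the mean pair ratios were -1.23, -1.33, -0.85 and -1.004, and the average levels lay between 2.70 and 14.6 CPM in shRNA and between 6.41 and 28.9 CPM in control libraries. NV2.12540 was highest in replicate 2, with 18.6 CPM in the shRNA and 33.6 CPM in the control library, whereas the other 3 members were highest in replicate 4 in control libraries. In NV2.24354, NV2.24358, NV2.24359 and NV2.24363 the mean pair ratios were -0.79, -1.22, -1.25 and -2.46. NV2.24363 had 0.277, 0.107, 0.499 and 1.57 CPM in shRNA libraries, against 3.35, 0.754, 2.03 and 11.0 CPM in control libraries, so that the groups overlapped although each shRNA value was the lower one of its pair. NV2.24358 had 27.4, 24.6, 9.71 and 27.9 CPM in shRNA libraries, against 51.4, 49.0, 36.5 and 58.6 CPM in control libraries, without overlap. The remaining 10 members, NV2.118 and NV2.119, NV2.7011 and NV2.7012, NV2.10004 and NV2.10006, NV2.16526 and NV2.16529, and NV2.17806 and NV2.17807, had mean pair ratios between -2.11 and -0.78. The lowest stood in NV2.17806 (-2.11) and the highest in NV2.10004 (-0.78). NV2.17807, in the group of NV2.17806, also had -0.78.

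**Figure D4:**
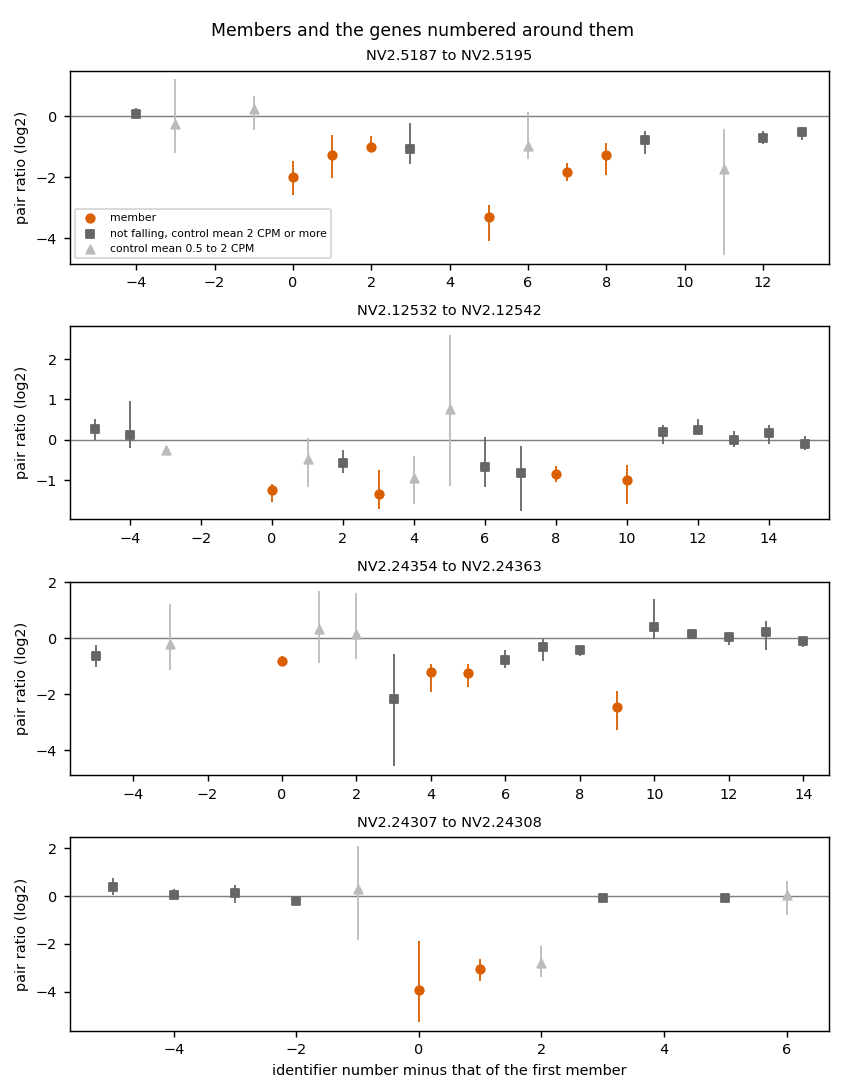
Pair ratio (y axis, log2 of shRNA over control; symbol, mean of 4 pairs; line, lowest to highest pair) against identifier number relative to the first member (x axis) around 4 groups of neighbours. Members are orange circles, genes at or above the control minimum that were not falling are grey squares, and genes with a control mean of 0.5 to 2 CPM are light triangles. Around NV2.24307 and NV2.24308 the grey squares lie near 0. In the panel of NV2.5187 to NV2.5195, NV2.5190, NV2.5196 and NV2.5199 lie below 0, whereas NV2.5183 lies near 0.

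Within 5 numbers of a member lay 208 other genes, of which 125 reached the control minimum. Of these 125, 25 (20%) had all 4 pair ratios below 0, against 8.01% of all genes at the minimum that were not falling. The limit was reached in 3 of the 4 pairs by 17 of them (13.6%), against 0.995% of all genes that were not falling. The median over the 125 was nevertheless -0.0015, against 0.04 for all genes that were not falling, and 61 had a mean pair ratio above 0. Their mean pair ratios ran between -2.19 for NV2.24357 and 0.81. The median gene around the members was therefore near that of all genes, while a minority came close to the limit. Identifiers between the members of a group belonged to 18 genes at the minimum that were not falling.

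The limit fell among genes with very similar values. NV2.16361 was just inside, with a pair ratio of -0.59 in replicate 1, as was NV2.5798, a falling gene without a falling neighbour, with -0.59 in replicate 2. Just outside were NV2.24357, with -0.57 in replicate 2, and NV2.11395, with -0.55 in replicate 1. Closest to the minimum control level were NV2.9745 with 2.28 CPM and NV2.6437 with 2.40 CPM.

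Further properties of the members were compared as descriptions. The longest transcript of a member had a median length of 1906 bases (range 611 to 9157 bases), against 2265 bases for the other falling genes and 2624 bases for all genes at the minimum. A single transcript was listed for 36 members (72%), against 71.3% of all genes at the minimum. The mean control level, which the rule used through its minimum and its ratio, had a median of 11.9 TPM (range 1.02 to 496 TPM), against 7.81 TPM for the other falling genes and 11.0 TPM for all genes at the minimum. The median member was thus shorter than the median gene and close to it in level and in the share with a single transcript.

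Neighbouring genes can share sequence, and Salmon divides a read that matches several transcripts among them, so that a gene whose summed count is not whole holds divided reads. In 11 members (22%) the sum was whole in none of the 8 libraries, against 21.1% of the other falling genes and 44.6% of all genes at the minimum. These were NV2.118, NV2.5189, NVE3843 (NV2.5194), NV2.9510, NV2.9746, NV2.10006, NV2.11816, NV2.17806, NV2.19340, NV2.19341 and NV2.24358, and their levels are uncertain to that extent. Another 37 members had a whole sum in 1 to 7 libraries and so held divided reads in the others. Among them, NV2.675, NV2.1445, NV2.1448 and NV2.5192 were whole in 1 library each. Where 2 genes divide reads only with each other, neither count is whole but their sum is. Among 37 pairs of members within 5 numbers of each other and with at least 1 library in which neither count was whole, the summed count was whole in 7 of 8 such libraries for NV2.19340 and NV2.19341 and in 4 of 6 for NV2.16361 and NV2.16362. These adjoining members thus divided reads with each other. As summed pairs they reached the limit in all 4 replicates, and each had a further member beside it (NV2.19339 and NV2.16360). In 2 other pairs of members the sum was whole in 1 such library, and in the other 33 in none. With genes that were not members, the sum was whole in 5 of 8 such libraries for NV2.5189 and NV2.5190, in 4 of 7 for NV2.675 and NV2.674, in 4 of 7 for NV2.5195 and NV2.5198, in 2 of 2 for NV2.6437 and NV2.6436 and in 2 of 6 for NV2.16529 and NV2.16527. Reads divided among 3 or more genes would not show in this comparison. The part of divided reads in neighbours being lower together was not tested. In NVE15732 (NV2.24307) and NV2.9745 the sum was whole in all 8 libraries. The strand setting of the counting is not given in the sources used here, so reads of genes that overlap on opposite strands cannot be told apart.

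The members were next compared between the library name prefixes, which held 2 libraries of each group. The rule did not use the prefix as such. It did use the levels of all 8 libraries, through the minimum of the mean control level and the pair ratios. The comparison is thus not fully independent of how the members were chosen. In edgeR's quasi-likelihood test with the group as a covariate, 20 of the 50 members (40%) were lower in LA20_3 than in LA19_2 when the limits were a Benjamini-Hochberg adjusted p of 0.05 and a 1.5-fold difference, against 25.4% of all genes tested. Higher in LA20_3 were 2 members (4%), NV2.19340 and NV2.20322, against 26.9% of all genes. The other 28 members did not pass. Replicate numbers lie within a prefix, so no replicate block could be fitted. The test took the 2 libraries of a replicate number as independent, and its adjusted p-values can therefore be too small. In control libraries only, 0 members and 0 of the 16860 genes tested passed. The median log2 fold change of LA20_3 over LA19_2 was -0.76 for the members, -0.34 for the other falling genes and -0.00075 for all genes tested. Of the 109 other falling genes, 32 (29.4%) were lower and 7 (6.42%) were higher.

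Members of a group did not always differ between the prefixes in the same direction. NV2.5187 averaged 2.10 CPM in LA20_3 and 7.24 CPM in LA19_2 libraries (log2 fold change -2.11), and NV2.5192 averaged 48.7 and 177 CPM (log2 fold change -2.10), whereas NV2.5188 of the same group averaged 40.3 and 27.7 CPM and did not pass (log2 fold change 0.29). NV2.1445 and NV2.1448 were both lower, with log2 fold changes of -1.53 and -1.49. NVE15733 (NV2.24308) was lower as well, with 20.8 CPM in LA20_3 and 63.8 CPM in LA19_2 libraries (log2 fold change -1.58), whereas NVE15732 (NV2.24307) averaged 3.48 and 3.21 CPM and did not pass (log2 fold change -0.15). NV2.20322 was higher (log2 fold change 1.01) and NV2.20323 lower (log2 fold change -1.31), although their numbers differ by 1. NV2.19340 averaged 14.7 CPM in LA20_3 and 2.46 CPM in LA19_2 libraries (log2 fold change 2.36), and its neighbours NV2.19339 and NV2.19341 did not pass, although the division of reads between NV2.19340 and NV2.19341 bears on both values. In edgeR the adjusted p of the passing members lay between 0.00579 and 0.0418.

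**Figure D5:**
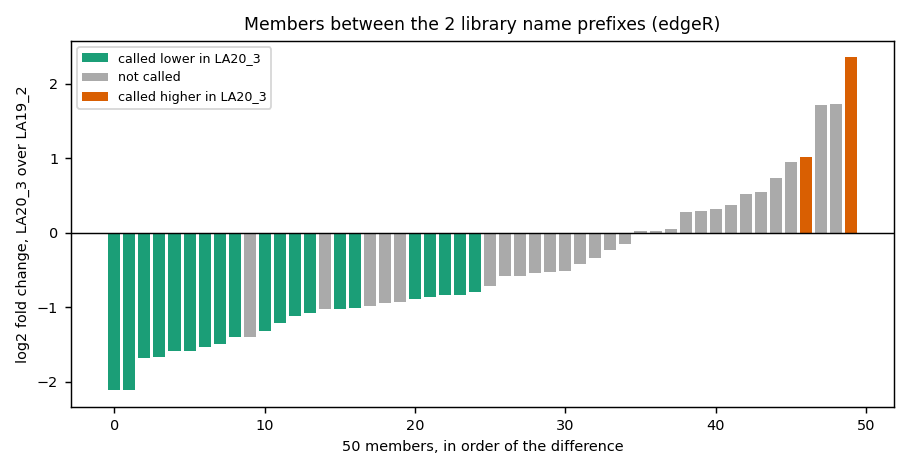
Log2 fold change of LA20_3 over LA19_2 libraries (y axis, edgeR with the group as a covariate) for the 50 members in order of the difference (x axis). The 20 members lower in LA20_3 are green and the 2 higher ones, NV2.19340 and NV2.20322, are orange, while 28 members in grey did not pass.

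These calls depended on which replicates were used. Without the libraries of replicate 3, 0 members and 0 of all genes passed the adjusted threshold in edgeR, with 10 members lower and 4 higher at an unadjusted p of 0.05. Without replicate 2, 5 members (10%) were lower and 1 (2%) higher, against 13.7% and 19.2% of all genes, so the share of lower members was then under that of all genes. Without replicate 4, 31 (62%) were lower and 1 (2%) higher, against 13.3% and 18.0% of all genes, and without replicate 1, 15 (30%) were lower and 7 (14%) higher, against 28.8% and 32.2%. Without the group as a covariate, 6 members (12%) were lower and 2 (4%) higher, against 25.5% and 27.4% of all genes. In that fit the shRNA difference, on which the members were chosen, counts as spread within a prefix. What this did to its share of lower members was not tested. The larger share of lower members in the fit with all libraries and the covariate was turned round by leaving out replicate 2 and by leaving out the covariate. The share of higher members was under that of all genes in each fit with the covariate that called any gene.

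For completeness, the tests of shRNA against control are given, on which nothing is based because the members were chosen on this contrast. In edgeR without a block, 0 members were called lower, as were 0.00% of all genes, and the smallest adjusted p of a member was 0.850. At an unadjusted p of 0.05, 37 members were lower, against 1.22% of all genes, and DESeq2 without a block called 10 members (0.190% of all genes). With the replicate number as a block, edgeR called 47 members (1.07% of all genes) and DESeq2 called 50 (1.37% of all genes). The 3 members not called by edgeR with the block were NV2.5195, NV2.16361 and NV2.20322. Of the 33 collection genes tested other than NvfoxE-like, 12 were lower, 2 higher (coup-like2 and foxL2) and 19 not called with the block. Without it, 0 were lower. The study marked part of the collection from these same libraries. Of these 33, 8 were falling and 4 were members: NVE3843, Ncol, NVE15732 and NVE15733.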

How the data were processed

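Bulk mRNA libraries of 4 NvfoxE-like shRNA and 4 scramble control pools were compared. The authors quantified 150 bp paired-end reads, filtered and trimmed by the sequencing provider, with Salmon against Nvec200 transcripts and deposited estimated counts and TPM for 35819 transcripts in each library. Salmon and DESeq2 are named in the submitters' processing notes, with versions, strand setting and bias options not given in the sources used here. The labels state an RNA integrity number of at least 8.0.

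Estimated counts were summed per gene (24520 genes) and rounded for the count tests. Of these genes, 19002 passed filterByExpr (minimum count 10). The library name prefix was tested with the quasi-likelihood F test of edgeR 4.0.16 (R 4.3.3, TMM scaling), and DESeq2 1.42.0 served as an alternative. Adjusted p-values are Benjamini-Hochberg. Sums within 0.01 of a whole number were called whole. The fits were tested on simulated data. Members and lists were chosen with earlier results of these data known.

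Named were all members of groups of 3 or more, of groups with a collection gene, of the 5 groups of 2 with the lowest mean pair ratio and of the 3 groups of 2 with the highest control TPM. Neighbours outside the collection were to be given by count and range. Those named singly, and the collection genes given beside the markers, were chosen after their values were seen. Same-numbered shRNA and control libraries deviated together from their group means (r = 0.41, 0.83, 0.83 and 0.69 across genes for replicates 1 to 4), and the numbers were taken to pair them. Differently numbered libraries of the same prefix did so too. The r was 0.47 for shRNA 1 with control 2 and 0.43 for shRNA 2 with control 1. It was 0.56 for shRNA 3 with control 4 and 0.69 for shRNA 4 with control 3. For replicates 1 and 4 these values thus do not tell the pairing by number from the shared prefix. The labels name separate pools but no separate parents, so p-values measure the spread between pools. Gene names came from the study's collection, in which 38 genes carry an identifier of the tables. The RefSeq table matched 0 identifiers, so no sequence or coordinate is given.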

Additional observations from a re-analysis of the deposited data

Results flagged for a closer look

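Among 120 sets of 4 values (the shRNA levels, control levels and pair ratios of the 40 named members), 9 held a value far from the other 3 by Dixon's 95% limit. Chance gives about 1 in 20 for independent sets. These sets are not independent, since the ratios come from the levels. The rule also cut the ratios off on the high side, so the 9 cannot be judged against that rate. Of these 9 values, 8 came from replicate 3. The pair ratio of replicate 3 was the low one in NV2.676 (-5.84), NV2.9746 (-1.48), NV2.11816 (-2.53), NV2.12532 (-1.54) and NV2.24358 (-1.90). The shRNA level of replicate 3 was the low one in NV2.675 (2.81 CPM) and NVE3843 (NV2.5194, 6.93 CPM), and the control level of replicate 3 was the low one in NV2.9507 (5.48 CPM). In NV2.18171 the shRNA level of replicate 4 was the high one (1.17 CPM).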

How the results depend on the processing

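Members were chosen by thresholds and by a pairing through replicate numbers. With a limit of -1 there were 83 falling genes and 21 members. Without the replicate block, with groups required not to overlap, there were 92 falling genes and 8 members, of which 7 were shared. The share of falling genes with a falling neighbour was then 8.70%, with no share among the other genes to set beside it. With neighbours within 1 number, 29 members and a share of 18.0% were found, and within 2 numbers a share of 23.0%. Leaving out genes with a whole sum in no library, an alternative chosen after seeing the data, gave 32 members. When a replicate was left out in turn, falling genes numbered 185 to 220 and members 50 to 75, the share was 27.0% to 34.6% and the median ratio -1.54 to -1.32. Members called lower in shRNA libraries numbered 47 in edgeR with the replicate block (203 of all genes), 10 in DESeq2 (45), 50 in DESeq2 with the block (263) and 38, 45, 41 and 38 in edgeR with the block and replicate 1, 2, 3 or 4 left out (132, 237, 174 and 127 of all genes), chosen after seeing the data. Members called between prefixes numbered 8 without the group as a covariate, 0 in control libraries only (11 lower and 2 higher at an unadjusted p of 0.05) and 0 to 32 with a replicate left out. A tolerance of 0.05 counts left 6 members with a whole sum in no library. Of 280 values of named members, 277 moved by less than the spread between pairs and 0 reversed. With 10 counts added, NV2.9507 had a mean pair ratio of -2.99, NV2.9745 of -1.43 and NV2.18171 of -2.35. The causes were not tested. Depth limits the lowest members, since 7 of 200 member pairs, in 6 members, held 3 or fewer counts in the shRNA library.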
